A study of Mus musculus with 6 samples.

Results

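The genes described here encode parts of the cilium, the hair-like organelle built on a core of microtubules. They were chosen by name from the mRNA table of the study, taking every gene whose symbol begins with Dnah, Dnaic, Dnaaf, Cfap, Tekt, Rsph or Ift followed by a digit. This gave 81 of the 21954 genes in the table. By role they comprise 15 dynein heavy chains, 2 dynein intermediate chains, 5 dynein arm assembly factors, 8 radial spoke proteins, 5 tektins, 32 Cfap proteins (named as associated with cilia and flagella) and 14 proteins of intraflagellar transport. Of the transport proteins 3 belong to complex A and 11 to complex B.

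The study sequenced polyadenylated RNA from the thymus of C57BL mice aged 5 weeks. The control group is 3 libraries from mice that were not exposed, and the irradiated group is 3 libraries from mice given 6 Gy of X-rays and sampled 24 h later. The labels give no transgene, allele or other agent in either group, and they state 3 mice a group. Which library came from which animal is not spelled out, so a p-value here reflects variation among these 6 libraries, which may be technical in part. The unit is FPKM, in which the fragments of a gene are divided by its length and by the size of the library, a scale on which levels can be compared between genes.

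A motile cilium carries an axoneme whose outer microtubule doublets slide against each other when dynein arms, motors made of heavy, intermediate and light chains, pull on them. Radial spokes and the central pair regulate the beat, tektins lie within the doublet walls, and assembly factors of the Dnaaf group prepare dynein arms in the cytoplasm before they are carried into the cilium. Primary cilia, which signal and do not beat, lack most of this machinery but share the transport complexes: complex B carries cargo toward the tip with kinesin, and complex A works in the return with dynein. In the body, motile cilia line airways, oviducts and brain ventricles, the sperm tail is a related flagellum, and lymphocytes do not build a typical primary cilium although they use several transport proteins at the immune synapse. Foxj1 and the RFX factors are transcription factors that drive ciliary genes, and RFX factors bind a palindrome of facing half-sites known as the X-box.

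The thymus label was checked against markers of double-positive thymocytes, the main cortical cell of the organ. The sum of 12 such markers was 2348, 2542 and 2725 FPKM in control replicates 1, 2 and 3, against 221.9, 134.6 and 182.3 FPKM in irradiated replicates 1, 2 and 3. In bulk tissue, fewer cells of a type and less RNA per cell cannot be told apart. Irradiated replicate 2 stood apart by its level of airway secretory markers, and which cells this RNA came from was not tested. The 13 markers of airway secretory cells summed to 16.84 to 20.72 FPKM in the controls, to 159.7 and 137.0 FPKM in irradiated replicates 1 and 3, and to 3999 FPKM in irradiated replicate 2. Scgb1a1, the club cell secretoglobin, measured 0 to 0.450 FPKM in the controls and 1.79, 811 and 2.0 FPKM in irradiated replicates 1, 2 and 3. Airway epithelium is rich in ciliated cells, so counts for the 81 genes and most of their roles are given below with and without irradiated replicate 2. Counts for the marker lists and the lists of other ciliary genes use all libraries unless stated. The part of airway RNA in any of these counts was not tested. Estimated depth was 21900000 to 23200000 fragments in control and 24400000 to 25600000 in irradiated libraries, and 1 fragment in a transcript of 1 kb was worth 0.0391 to 0.0456 FPKM.

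To place the genes by a feature that no expression value enters, their promoters were searched for the RFX half-site. RefSeq promoters on GRCm38.p6, 250 bases before to 50 after the start, were matched for 66 of the 81 genes, which have 73 promoters. The half-site GTTGCC, on either strand, occurred in 29 of these 73 promoters (39.7%) and in 4111 of all 32851 promoters (12.5%). A pair of facing half-sites, GTNNC followed after at most 4 bases by GNNAC, occurred in 63.0% and 24.3% of the same promoters. The pair can hold the half-site, so the counts overlap. A match is only a stretch of letters, and binding was not measured. The windows below, written 5′ to 3′ on the gene's own strand, each carry a half-site in capitals (GGCAAC where it lies on the other strand). Those of Ift57 and Cfap298 also hold another half-site, left in lower case, 87 and 180 bases before the start. All the windows are shown because they come from genes that moved in opposite directions or did not pass the test.
Dnah10, chr5:124725035-124725084, plus strand: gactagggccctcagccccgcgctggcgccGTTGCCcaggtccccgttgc
Dnaic2, chr11:114727363-114727418, plus strand: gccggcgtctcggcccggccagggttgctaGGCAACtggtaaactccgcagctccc
Cfap44, chr16:44394750-44394798, plus strand: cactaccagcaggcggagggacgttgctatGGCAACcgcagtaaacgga
Cfap74, chr4:155409173-155409238, plus strand: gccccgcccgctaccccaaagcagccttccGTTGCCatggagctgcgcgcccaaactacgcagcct
Ift57, chr16:49699204-49699269, plus strand: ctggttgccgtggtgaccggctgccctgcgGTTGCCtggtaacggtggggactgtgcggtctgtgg
Dnaaf2, chr12:69198430-69198468, minus strand: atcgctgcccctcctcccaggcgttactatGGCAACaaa
Cfap298, chr16:90935002-90935067, minus strand: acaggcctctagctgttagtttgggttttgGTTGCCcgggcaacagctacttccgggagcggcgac
In Dnah10, Dnaic2 and Cfap44, whose mRNA rose, the half-site lies 20, 26 and 19 bases before the start. In Cfap74, Ift57 and Dnaaf2, whose mRNA fell, the half-site in capitals lies 37, 60 and 9 bases before the start. By direction, the half-site was in 8 of 26 promoters of genes that rose (30.8%), in 5 of 7 promoters of genes that fell (71.4%, from 4 of 6 genes) and in 16 of 40 promoters of the other ciliary genes (40.0%). The facing pair was in 57.7%, 57.1% and 67.5% of the same promoters, so the directions did not part by it. With 7 promoters of genes that fell, neither split can bear a reading.

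In control thymus most axonemal genes were near 0 and the transport genes were not. Of the 67 axonemal genes, 53 averaged under 0.5 FPKM in the controls and 1 of these, Cfap97d1, was listed at 0 in every library. Of the 14 transport genes, 13 averaged at least 0.5 FPKM. Only 6 of the 81 genes reached 10 FPKM in the control mean: Dnah8, Cfap36, Cfap74, Ift20, Ift52 and Ift80. After irradiation the low axonemal genes were mostly higher, most of all in irradiated replicate 2, while Dnah8, Cfap74 and Ift80 fell.

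**Figure D1:**
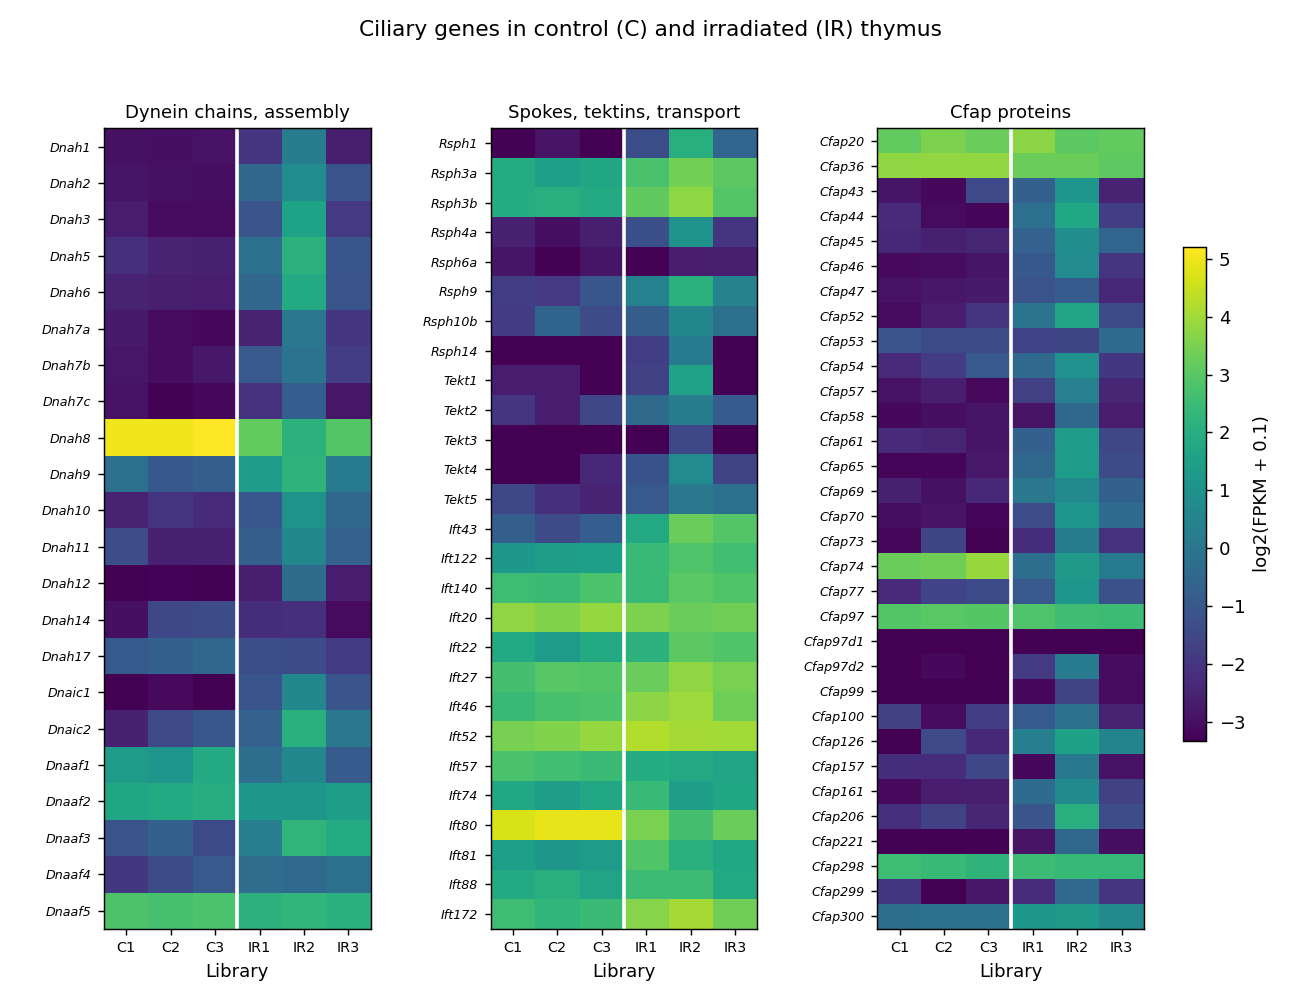
Level of each of the 81 ciliary genes in each library, as log2(FPKM + 0.1), for control (C1 to C3) and irradiated (IR1 to IR3) thymus. Most axonemal genes are dark in the controls, lighter in the irradiated libraries and lightest in IR2, while Dnah8, Cfap74 and Ift80 go the other way.

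Differences were tested with limma on log2(FPKM + 0.1) across all genes averaging at least 0.5 FPKM, and a gene was said to rise or fall when its Benjamini-Hochberg adjusted p was under 0.05. Adding 0.1 understates the change of low genes. Of the 81 genes 50 could be tested, and 28 of these rose, 8 fell and 14 did not pass. Across all 14001 genes tested, 42.4% rose and 20.9% fell, so a rise was common in these libraries and the counts alone are no result about ciliary genes. The 31 untested genes are low in both groups, and 24 of the 50 tested ones passed the filter only through their irradiated values, so the count of 28 cannot be read as a share of ciliary genes. The other 26 comprised 11 that rose, 8 that fell and 7 that did not pass. Of the 28 that rose, Dnah5, Dnah6, Dnah10, Dnaic2, Dnaaf3, Dnaaf4, Rsph1, Rsph9 and Ift43 passed the filter only through irradiated values. So did every Cfap gene that rose except Cfap300. Such a gene is tested only if it is high after irradiation, so its rise follows in part from the filter. The median log2 fold change was 1.26 over the 50 genes and 0.40 over all genes tested. Of all 14001 genes tested 1610 passed the filter only through their irradiated values, a smaller part than 24 of 50. With no filter the median was 1.34 over the ciliary genes and 0.40 over all genes, so the filter did not raise the ciliary median here. How the filter acts on the medians under the scalings below was not tested. The count depended on the scaling. Quantile normalization, which moved the median of all genes to -0.07, left 5 ciliary genes that rose and 11 that fell, with a median of 0.40. Median-ratio scaling, which moved the median of all genes to 0.02, gave 21 that rose and 10 that fell, with a median of 0.92.

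With no filter on low values, 37 of the 80 genes with a value above 0 rose and 7 fell, against 35.7% and 15.1% of all 19228 genes. Leaving out irradiated replicate 2 as well gave 33 that rose and 8 that fell of 79, against 32.1% and 12.7%, and the median fell from 1.34 to 0.81. The median over all genes was 0.40 and 0.34 in the same fits. With the filter kept, leaving out that library left 30 testable genes, of which 12 rose and 7 fell. By rank alone, all irradiated values stood above all control values in 50 of the 80 genes (62.5%), against 41.8% of all genes with a value. All irradiated values stood below in 11 (13.8%), against 18.7%, and the groups overlapped in 19. Without irradiated replicate 2, both remaining irradiated libraries stood above every control in 50 genes and below in 12, against 43.8% and 20.1% of all genes. The authors' deposited table gave 80 of these genes a p, and 50 of the 80 were higher there and 6 lower at adjusted p under 0.05, against 32.5% and 14.0% of all genes. Of the 36 genes that rose or fell here, 27 had the same call in the authors' deposited table and 0 had the opposite one.

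**Figure D2:**
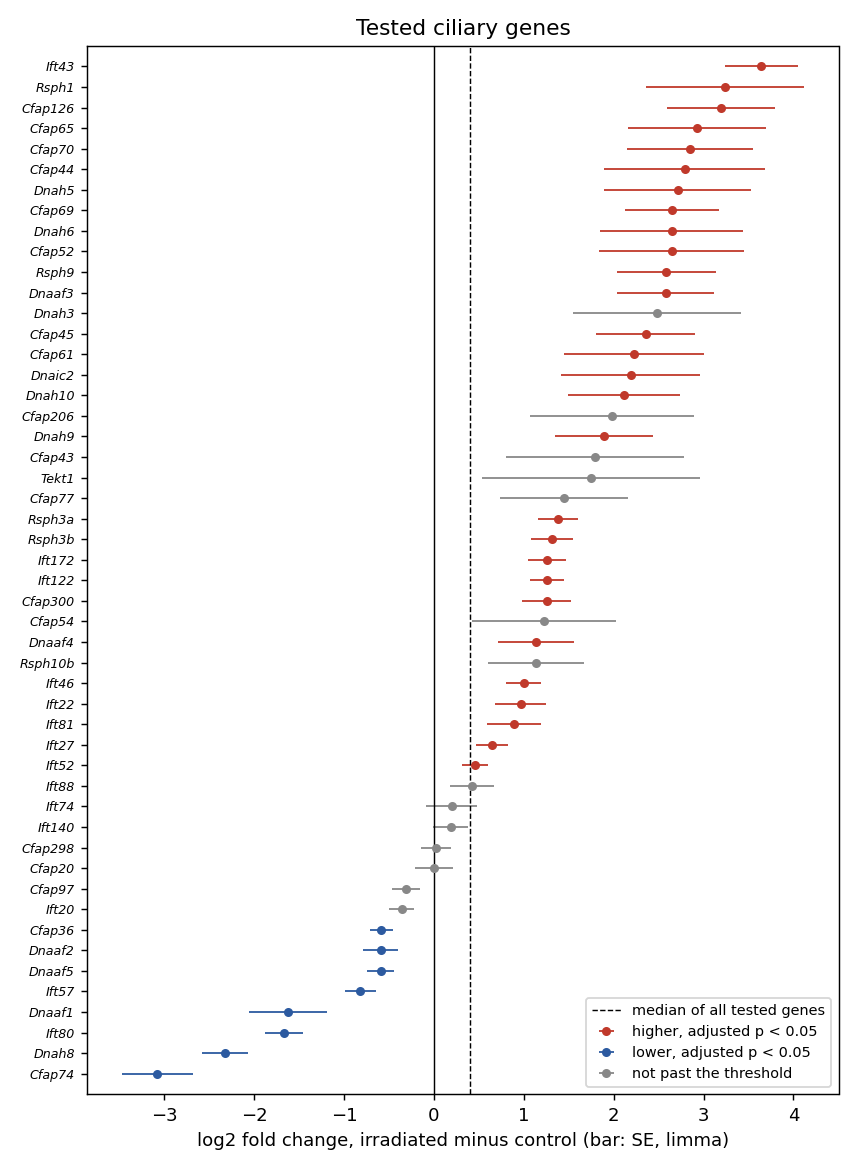
Log2 fold change, irradiated minus control, with its SE from limma, for the 50 tested ciliary genes. The genes run from Cfap74 at -3.08 to Ift43 at 3.64, and the dashed line marks the median of all tested genes at 0.40.

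Irradiated replicate 2 carried the highest of the 3 irradiated values in 56 of the 66 axonemal genes with a value (84.8%) and in 8 of 14 transport genes, against 36.5% of all genes. On the log2(FPKM + 0.1) scale, the median axonemal gene stood above its control mean by 1.14, 2.84 and 0.75 in irradiated replicates 1, 2 and 3. The median transport gene stood above by 0.60, 0.67 and 0.40, and the median of all genes with a value by 0.22, 0.48 and 0.37. The axonemal median thus varied more between irradiated libraries than the transport median, which in replicate 3 was near that of all genes. Among the irradiated libraries, Foxj1 had the same order as the median axonemal gene. It measured 0.394, 0.361 and 0.589 FPKM in the controls and 2.45, 11.5 and 1.97 FPKM in irradiated replicates 1, 2 and 3.

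**Figure D3:**
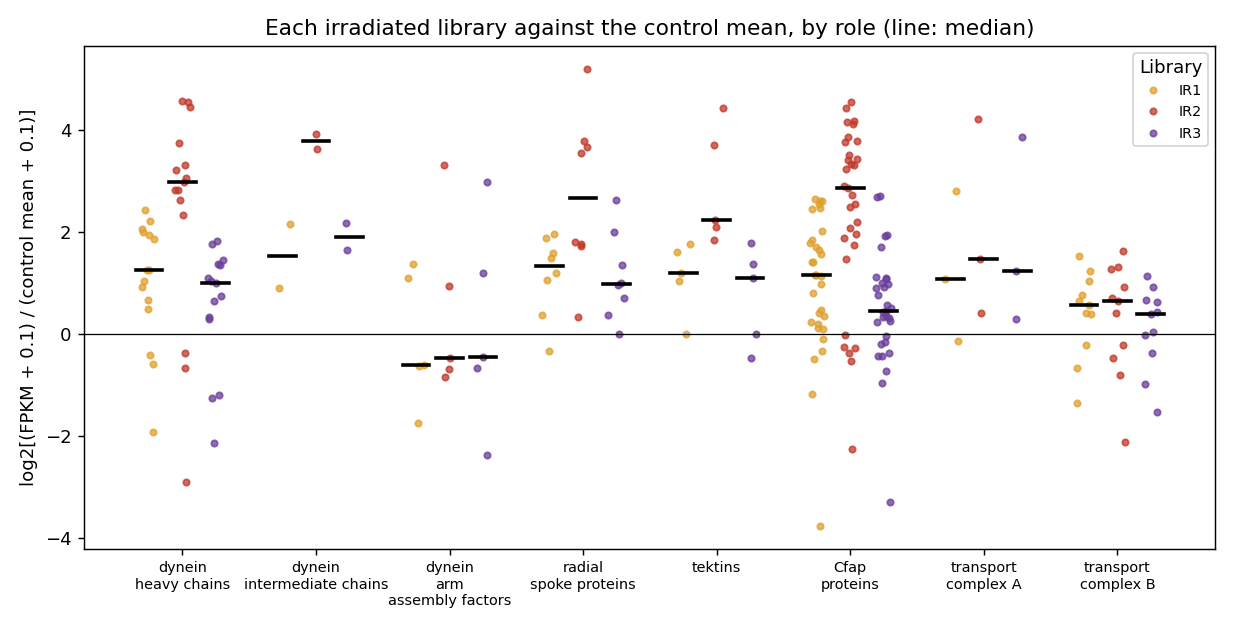
Log2 ratio of each irradiated library to the control mean, with 0.1 FPKM added to both, for every ciliary gene with a value, by role (lines are medians). IR2 stands highest for most axonemal roles, whereas the 3 libraries lie close together for transport complex B.

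The dynein heavy chains are the motor subunits of the arms, and Dnah8 made up most of their RNA in control thymus. Dnah8 (ENSMUSG00000033826, chr17:30624354-30877365 on the plus strand) measured 32.1, 32.6 and 36.0 FPKM in control replicates 1, 2 and 3 and 8.75, 4.38 and 7.54 FPKM in irradiated replicates 1, 2 and 3. Every irradiated library was below every control. The mean went from 33.6 ± 2.11 FPKM to 6.89 ± 2.26 FPKM (SD, n = 3 each), which is 4.87-fold lower, with a log2 fold change of -2.32 ± 0.25 (SE) and a limma adjusted p of 0.000322. Dnah8 overlaps Glo1 on the opposite strand, and because strand use in counting is not given in the sources used here, reads of the 2 genes cannot be told apart where they overlap. The same limit holds for all 19 ciliary genes that overlap another gene. Dnaaf1, Dnaaf2, Dnaaf3, Rsph9 and Cfap61 are among them, as are Dnah3, Dnaic1 and Ift140. The share of Dnah8 in all heavy chain FPKM was 93.9% to 95.14% in the controls and 55.37%, 14.89% and 64.54% in irradiated replicates 1, 2 and 3.

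For the other 14 heavy chains the sum was 2.082, 1.668 and 1.855 FPKM in the controls, against 7.054, 25.06 and 4.145 FPKM after irradiation. All irradiated sums were above the controls, and irradiated replicate 2 was several times above the other irradiated libraries. Of the 15 heavy chains 6 could be tested, of which 4 rose (Dnah5, Dnah6, Dnah9 and Dnah10), Dnah8 fell and Dnah3 did not pass. With no filter 8 rose and 1 fell, against 35.7% and 15.1% of all genes. The same counts were found without irradiated replicate 2, against 32.1% and 12.7%. Groups did not overlap in 12 that were higher (80.0%) and 2 that were lower (13.3%), against 41.8% and 18.7% of all genes with a value.

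Dnah5 and Dnah9 encode outer arm heavy chains of airway cilia. Dnah5 (chr15:28203752-28472052) measured 0.127, 0.0749 and 0.0676 FPKM in the controls and 0.774, 4.33 and 0.384 FPKM in the irradiated libraries. Its log2 fold change was 2.71 ± 0.82 (SE) with an adjusted p of 0.0229. Dnah9 (chr11:65831282-66168533) measured 0.769, 0.411 and 0.499 FPKM in the controls and 2.54, 4.57 and 1.01 FPKM in the irradiated libraries, a log2 fold change of 1.89 ± 0.54 with an adjusted p of 0.0189. In both genes irradiated replicate 3 was the lowest irradiated library and still above every control. The inner arm chains Dnah6 and Dnah10 rose by 2.65 ± 0.80 (adjusted p = 0.0230) and 2.12 ± 0.62 (adjusted p = 0.0208). These calls needed all controls: with control replicate 1, 2 or 3 left out, the adjusted p was 0.0546, 0.0661 and 0.0683 for Dnah5, 0.0602, 0.0648 and 0.0659 for Dnah6 and 0.0658, 0.0514 and 0.0601 for Dnah10. That of Dnah9 was 0.0659 and 0.0600 without control replicate 2 or 3. Without irradiated replicate 2 it was 0.0470 with the filter and 0.0667 with no filter. After quantile normalization none of the 4 passed (adjusted p = 0.25 to 0.501). Dnah3, also an inner arm chain, had a log2 fold change of 2.49 ± 0.93 with an adjusted p of 0.0502, and its irradiated values were 0.374, 2.99 and 0.168 FPKM. Among those the filter left out, Dnah2 was at 0.0249 to 0.0412 FPKM in the controls and at 0.610, 1.66 and 0.367 FPKM in the irradiated libraries, and it rose with no filter (2.66, adjusted p = 0.00470). Dnah17, a heavy chain of the sperm tail, had all 3 irradiated values (0.311, 0.286 and 0.170 FPKM) below its controls (0.435, 0.515 and 0.610 FPKM), and it did not pass with no filter (adjusted p = 0.0681). Dnah7a, Dnah7b and Dnah7c are near-identical copies whose reads can be split between them, so their single values are uncertain. The intermediate chain gene Dnaic2 measured 0.0709, 0.269 and 0.393 FPKM in the controls and 0.542, 4.15 and 0.976 FPKM in the irradiated libraries, and rose by 2.19 ± 0.77 (adjusted p = 0.0405). That call was lost without control replicate 1, 2 or 3 (adjusted p = 0.128, 0.0842 and 0.0601), without irradiated replicate 3 (0.0677), with no filter (0.0518), with no filter and without irradiated replicate 2 (0.0869), with median-ratio scaling (0.0571), with a pseudocount of 1 (0.0807) and after quantile normalization (0.448). Dnaic1, the other intermediate chain, was at 0, 0.0172 and 0 FPKM in the controls and at 0.368, 1.49 and 0.373 FPKM after irradiation, and rose with no filter (2.74, adjusted p = 0.00437). Both intermediate chains thus had irradiated libraries that lay wholly above the controls.

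Of the 5 assembly factors 2 rose and 3 fell, where 42.4% and 20.9% of all genes tested did. Dnaaf1, Dnaaf2 and Dnaaf5, at 2 FPKM or more in every control, fell, and Dnaaf3 and Dnaaf4, under 0.6 FPKM in every control, rose. With no filter 2 rose and 2 fell, against 35.7% and 15.1% of all genes. Without irradiated replicate 2 as well 1 rose and 2 fell, against 32.1% and 12.7%. Counts out of 5 cannot bear a reading about the group. After quantile normalization 0 rose and 3 fell. Dnaaf1 (chr8:119575235-119598454), a leucine-rich repeat protein, measured 2.49, 2.14 and 3.63 FPKM in the controls and 0.746, 1.49 and 0.450 FPKM in the irradiated libraries (log2 fold change -1.62 ± 0.43, adjusted p = 0.0142). Without control replicate 3 its adjusted p was 0.0619. Dnaaf5 measured 7.02, 6.50 and 6.74 FPKM in the controls and 4.37, 4.81 and 4.17 FPKM in the irradiated libraries, so the groups were narrow and did not overlap (-0.59 ± 0.15, adjusted p = 0.0108). Dnaaf2 went from 3.54 ± 0.372 FPKM to 2.31 ± 0.208 FPKM (SD, n = 3 each; adjusted p = 0.0300), a call that was lost with no filter (0.0502), without control replicate 1, 2 or 3 (0.0521, 0.101 and 0.109), without irradiated replicate 2 (0.0703) and with the replicate block (0.0593). Dnaaf3 measured 0.360, 0.512 and 0.278 FPKM in the controls and 1.15, 4.65 and 3.71 FPKM in the irradiated libraries (2.58 ± 0.54, adjusted p = 0.00494). Dnaaf3 overlaps the cardiac troponin gene Tnni3 on the same strand, and Dnaaf2 overlaps Gm49383 on the same strand, so the values of both are uncertain. Dnaaf4 rose by 1.14 ± 0.42 (adjusted p = 0.0485) and changed sign after quantile normalization, to -0.565. Without control replicate 1, 2 or 3 its adjusted p was 0.148, 0.117 and 0.0564.

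Radial spoke proteins connect the doublets to the central pair. Of the 8 genes 5 could be tested, of which Rsph1, Rsph3a, Rsph3b and Rsph9 rose and Rsph10b did not pass. With no filter 4 rose of 8, and 5 rose without irradiated replicate 2, against 35.7% and 32.1% of all genes. After quantile normalization 2 of the 5 tested genes rose. Rsph3a (chr17:7945614-7979824) measured 3.67, 2.71 and 3.18 FPKM in the controls and 6.68, 10.7 and 8.22 FPKM in the irradiated libraries (1.38 ± 0.22, adjusted p = 0.00164). Rsph3b, its near-identical copy, rose by 1.31 ± 0.23 (adjusted p = 0.00253), and the split of reads between the copies is uncertain. These 2 spoke genes were above 2 FPKM in every control, and the other 6 were under 0.6 FPKM there. Rsph9, a spoke head protein, measured 0.198, 0.166 and 0.387 FPKM in the controls and 1.25, 4.29 and 1.30 FPKM in the irradiated libraries (2.58 ± 0.55, adjusted p = 0.00543). Rsph1 (chr17:31255019-31277383), also of the spoke head, was at 0.00458, 0.0356 and 0 FPKM in the controls and at 0.315, 4.04 and 0.594 FPKM after irradiation (3.24 ± 0.88, adjusted p = 0.0155). Irradiated replicate 2 stood highest for both. Without control replicate 3 the adjusted p of Rsph1 was 0.0501. Rsph4a, another head protein, was left out by the filter, at 0.0236 to 0.0737 FPKM in the controls and 0.326, 1.99 and 0.150 FPKM in the irradiated libraries. Rsph10b, which overlaps Pms2, had a log2 fold change of 1.14 ± 0.53 and an adjusted p of 0.0977.

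The 5 tektins, filament proteins of the doublet wall, were low in control thymus. Their sum was 0.4707, 0.2381 and 0.425 FPKM in the controls, against 1.652, 6.847 and 1.437 FPKM after irradiation. Irradiated replicate 2 had the highest value of all 5. Tekt1 was the only tektin tested, at 0.0600, 0.0595 and 0 FPKM in the controls and 0.219, 2.92 and 0 FPKM in the irradiated libraries. Its groups overlapped, and its log2 fold change of 1.75 ± 1.21 did not pass (adjusted p = 0.239). With no filter 3 tektins rose, also without irradiated replicate 2, against 35.7% and 32.1% of all genes. Tekt3 was at 0 in every library except irradiated replicate 2, at 0.256 FPKM.

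The 32 Cfap genes encode axonemal proteins of many kinds, and 18 could be tested. Of these 9 rose, 2 fell and 7 did not pass, where 42.4% of all genes tested rose and 20.9% fell. With no filter 12 of 31 rose and 2 fell, against 35.7% and 15.1% of all genes. Without irradiated replicate 2 the counts were 11 and 3, against 32.1% and 12.7%. Cfap74 (chr4:155409258-155466823), of the central pair, measured 9.40, 10.0 and 14.6 FPKM in the controls and 0.741, 2.30 and 1.07 FPKM in the irradiated libraries. It was 8.29-fold lower after irradiation, with a log2 fold change of -3.08 ± 0.40 and an adjusted p of 0.000639. The promoter window of Cfap74 is printed above with its half-site. Cfap36, at 13.5, 14.0 and 14.0 FPKM in the controls and 9.76, 9.56 and 8.33 FPKM in the irradiated libraries, fell by less (-0.59 ± 0.13, adjusted p = 0.00642).

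The Cfap genes that rose were low in the controls. All but Cfap300 averaged under 0.5 FPKM there, so they could be tested only because they were high after irradiation. Cfap126 (chr1:171113918-171126967), known as Flattop and needed for basal body positioning, measured 0, 0.265 and 0.0912 FPKM in the controls and 1.17, 2.86 and 1.33 FPKM in the irradiated libraries (3.19 ± 0.61, adjusted p = 0.00328). Cfap69 measured 0.0712, 0.0313 and 0.0908 FPKM in the controls and 0.930, 1.54 and 0.528 FPKM in the irradiated libraries (2.65 ± 0.52, adjusted p = 0.00395). In both, the lowest irradiated library was several times above the highest control. Cfap300 differed in being similar in irradiated replicates 1 and 2, at 2.23 and 2.34 FPKM, with 1.53 FPKM in replicate 3 and 0.753 to 0.833 FPKM in the controls (1.25 ± 0.27, adjusted p = 0.00616). It changed sign to -0.170 after quantile normalization. Cfap45, Cfap70, Cfap65, Cfap52, Cfap44 and Cfap61 rose by 2.35, 2.85, 2.93, 2.64, 2.79 and 2.23, with limma adjusted p of 0.00800 to 0.0400. After quantile normalization 0 of the 18 tested Cfap genes rose and 4 fell. With median-ratio scaling 8 rose and 3 fell, and Cfap61 did not pass (adjusted p = 0.0525). Of the 18, 12 passed the filter only through their irradiated values, with Cfap126, Cfap69 and these 6 genes among them. Irradiated replicate 2 was the highest irradiated library in 26 of the 31 Cfap genes with a value.

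Among the Cfap genes that did not pass, 3 were well expressed in both groups. Cfap20, an inner protein of the doublets, measured 8.88, 11.3 and 9.37 FPKM in the controls and 13, 8.17 and 8.83 FPKM in the irradiated libraries (adjusted p = 0.994). Cfap298 measured 5.72, 5.38 and 4.53 FPKM in the controls and 5.65, 5.13 and 5.04 FPKM after irradiation (0.02 ± 0.16, adjusted p = 0.910). In both the groups overlapped. Cfap97 had 7.73 ± 0.303 FPKM in the controls and 6.25 ± 0.813 FPKM in the irradiated libraries (SD, n = 3 each; adjusted p = 0.116). Cfap206, at 0.372, 4.04 and 0.307 FPKM in the irradiated libraries against 0.0884 to 0.210 FPKM in the controls, did not pass (1.98 ± 0.91, adjusted p = 0.0938). Cfap99 and Cfap221 were listed at 0 in all controls and reached 0.235 and 0.622 FPKM in irradiated replicate 2.

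The 14 transport genes were all tested. Their sum was 96.34, 97.94 and 105.9 FPKM in the controls, against 116.1, 126.4 and 108.2 FPKM after irradiation. Within this narrow change of the sum, 8 rose, 2 fell and 4 did not pass, where 42.4% of all genes tested rose and 20.9% fell. The calls depended on scaling: 3 rose and 3 fell after quantile normalization, and 4 rose and 3 fell with median-ratio scaling. With no filter and without irradiated replicate 2, 4 rose and 2 fell.

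In complex A, Ift43 and Ift122 rose and Ift140 did not pass. Ift43 (chr12:86082563-86162459), a small subunit, measured 0.496, 0.284 and 0.484 FPKM in the controls and 3.51, 9.48 and 7.43 FPKM in the irradiated libraries. The mean was 16.2-fold higher, with a log2 fold change of 3.64 ± 0.41 and an adjusted p of 0.000369. Irradiated replicates 2 and 3 were both high in Ift43, as in Dnaaf3 above. Ift122 measured 2.23, 2.62 and 2.67 FPKM in the controls and 5.36, 7.10 and 6.00 FPKM in the irradiated libraries (1.26 ± 0.19, adjusted p = 0.00117). Ift140, at 5.84, 5.48 and 6.78 FPKM in the controls, had irradiated values of 5.42, 8.03 and 7.37 FPKM that overlapped them (0.19 ± 0.20, adjusted p = 0.429).

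In complex B, Ift80 fell and was the transport gene with the highest level in the controls. Ift80 (chr3:68892499-69004570) measured 25.8, 29.3 and 29.5 FPKM in the controls and 11.0, 6.38 and 9.71 FPKM in the irradiated libraries (-1.67 ± 0.21, adjusted p = 0.000629). Ift57, a peripheral subunit, measured 6.68, 6.07 and 5.54 FPKM in the controls and 3.80, 3.44 and 3.02 FPKM in the irradiated libraries (-0.82 ± 0.17, adjusted p = 0.00533). Neither gene had overlapping groups. Ift172 (chr5:31253277-31291116), a large peripheral subunit, measured 5.72, 4.63 and 5.57 FPKM in the controls and 12.5, 16.6 and 10.1 FPKM in the irradiated libraries (1.26 ± 0.21, adjusted p = 0.00189). Ift46 rose by 1.00 ± 0.20 (adjusted p = 0.00379). Ift22 rose by 0.97 ± 0.28, Ift81 by 0.89 ± 0.30, Ift27 by 0.64 ± 0.18 and Ift52 by 0.46 ± 0.15, with adjusted p of 0.0169 to 0.0358. Subunits of one complex thus moved in opposite directions. Ift20, which also works in vesicle traffic at the immune synapse, measured 13.6, 11.9 and 14.5 FPKM in the controls and 11.4, 9.57 and 10.2 FPKM in the irradiated libraries (-0.36 ± 0.14, adjusted p = 0.0593). Ift88 and Ift74 did not pass either, at 0.42 ± 0.24 (adjusted p = 0.159) and 0.20 ± 0.28 (adjusted p = 0.556).

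Noncoding transcripts of the same genes stand in the separate lncRNA table, in which 186 transcripts belong to 65 genes whose symbols match the name rule. These include the antisense genes Dnah2os and Ift88os, with 1 transcript each, which are not among the ciliary genes described above. Summed by gene, 16 genes averaged at least 1 FPKM in a group, and the groups did not overlap in 4 that were higher and 6 that were lower. Of all 7316 genes in both tables whose noncoding transcripts reached that level, 18.5% were higher and 41.9% lower without overlap, so lower values were common in that table. No test was run on them. Noncoding transcripts of Ift80 came to 21.4, 24.7 and 25.3 FPKM in the controls, against 8.80, 5.14 and 4.84 FPKM in the irradiated libraries. Those of Dnah8 came to 15.3, 15.5 and 15.0 FPKM in the controls, against 3.93, 3.07 and 4.68 FPKM in the irradiated libraries. Both were lower, 3.81-fold for Ift80 and 3.92-fold for Dnah8, beside 3.12-fold and 4.87-fold in mRNA. Those of Cfap74 were lower as well (4.87, 4.49 and 8.10 FPKM against 0.358, 1.58 and 0.550 FPKM). Those of Ift172 were higher, at 3.48, 2.36 and 3.01 FPKM in the controls and 7.55, 5.90 and 3.78 FPKM in the irradiated libraries. Ift140 differed between the tables: its noncoding transcripts were lower in every irradiated library (0.807 to 1.17 FPKM against 1.41 to 1.83 FPKM), and its mRNA groups overlapped. The 2 tables were normalized separately, so levels set across them are approximate. Transcripts of 1 gene can share reads, so the 2 tables are not independent readings of a gene. In control replicate 2, for example, Ift43 was listed at 0.284 FPKM in both. How far reads were shared was not tested.

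**Figure D4:**
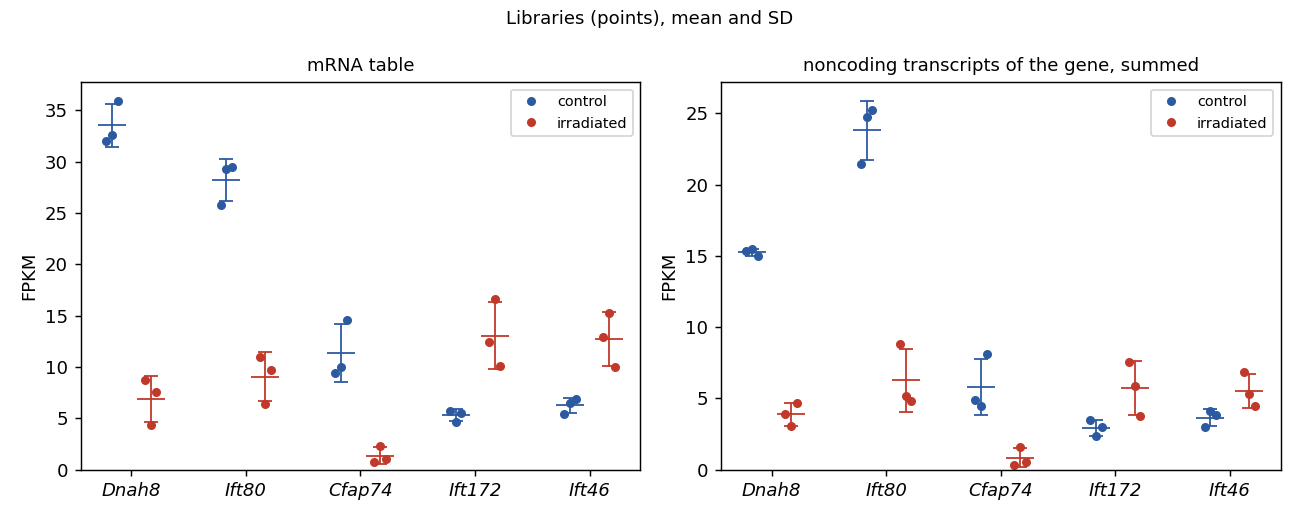
FPKM of Dnah8, Ift80, Cfap74, Ift172 and Ift46 in the mRNA table (left) and of the summed noncoding transcripts of the same genes (right), with points for libraries and bars for mean and SD. For the first 3 genes the irradiated libraries lie below the controls in both panels, and for Ift172 and Ift46 they lie above.

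Markers of cells that could carry motile cilia or axonemal RNA were counted beside these results. Among all genes tested 42.4% rose and 20.9% fell. Many markers were tested only because their irradiated values lifted them past the filter. This holds for 5 of 9 tested multiciliated, 7 of 12 airway secretory and 7 of 11 skeletal muscle genes. It also holds for 2 of 6 alveolar, 1 of 6 tuft cell and 3 of 8 endothelial genes. Counts of rises in these lists cannot be read as shares. Of 14 regulators and markers of multiciliated cells 9 were tested, of which 6 rose and 2 fell. Foxj1, the master regulator of motile cilia, rose by 2.87 (adjusted p = 0.00687). Rfx3, an X-box binding factor, fell from 12.0 ± 1.17 FPKM to 4.95 ± 0.861 FPKM (SD, n = 3 each; -1.27, adjusted p = 0.000819). The summed list went from 178.8 to 197.7 FPKM in the controls to 39.88, 80.81 and 27.32 FPKM in irradiated replicates 1, 2 and 3, and Myb, which thymocytes also express, made up most of it in the controls (162, 161 and 177 FPKM against 13.2, 6.45 and 5.75 FPKM). Mcidas and Gmnc, regulators of the multiciliated fate, and Deup1, of the deuterosomes that multiply centrioles, were left out by the filter and reached at most 0.166, 0.323 and 0.303 FPKM in any library. Mcidas and Deup1 stood above every control in all irradiated libraries, and with no filter Mcidas rose (0.79, adjusted p = 0.0214). Of the 13 airway secretory markers 12 were tested, of which 6 rose and 6 did not pass. The groups did not overlap in 11 that were higher, against 41.8% of all genes with a value. All 13 were highest in irradiated replicate 2. Alveolar lung markers summed to 9.816 to 12.07 FPKM in the controls and 13.05, 32.83 and 15.83 FPKM in the irradiated libraries, with 2 of 6 tested that rose and 1 that fell. The surfactant gene Sftpb was at 0 in every library except irradiated replicate 2, at 0.365 FPKM. Irradiated replicate 2 was the highest irradiated library in 6 of the 9 alveolar genes. Ager, Lamp3 and Rtkn2 went the other way, with their lowest values of all libraries there (0.961, 0.0350 and 0.148 FPKM). Of the 12 thymic epithelial markers 10 rose and 2 did not pass, from 283.0 to 444.7 FPKM in the controls to 732.8, 768.8 and 1131 FPKM. Of 8 thymic tuft cell markers 5 of 6 tested rose. Fibroblast markers rose in 9 of 9 (74.53 to 97.66 FPKM against 717.4 to 792.3 FPKM), endothelial in 7 of 8 (32.93 to 41.97 FPKM against 50.46 to 125.3 FPKM) and macrophage in 8 of 8 (117.5 to 155.9 FPKM against 827.4 to 1097 FPKM). Skeletal muscle markers, in 8 of 11 tested, rose too, and summed to 9.287 to 10.86 FPKM in the controls and 14.17, 232.1 and 62.24 FPKM in the irradiated libraries. The double-positive thymocyte markers fell in 12 of 12. The order of the irradiated libraries in the axonemal genes, with replicate 2 above 1 and 3, was also that of the airway list and of Foxj1. Of the 14 multiciliated regulators and markers, 9 were highest in irradiated replicate 2. Ccno (1.69, 1.31 and 0.612 FPKM) and Mcidas (0.166, 0.0976 and 0.151 FPKM) were instead highest in irradiated replicate 1. Replicate 2 was the highest in the skeletal muscle and alveolar lists too, with replicate 3 next. In the fibroblast and macrophage lists the highest irradiated library was less than 1.5 times the lowest. The part of any of these cell types in the ciliary results was not tested.

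**Figure D5:**
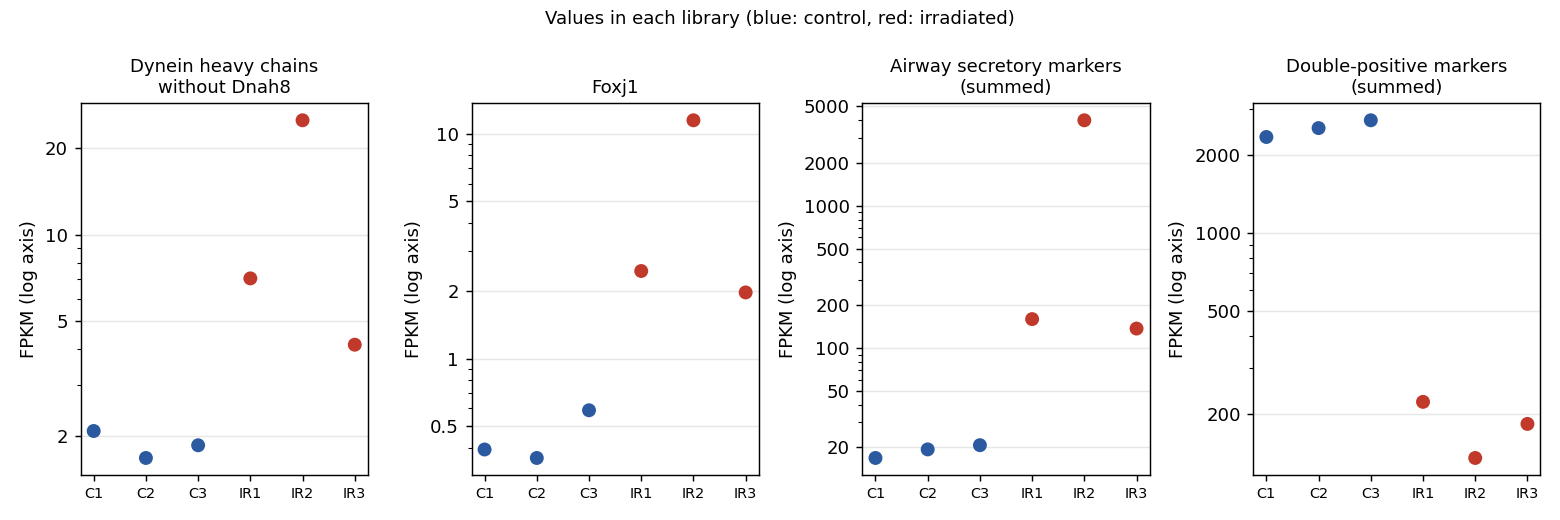
FPKM in each library, on log axes, of the dynein heavy chains without Dnah8, of Foxj1, of 13 airway secretory markers and of 12 double-positive thymocyte markers, the lists being summed. The first 3 are highest in IR2 (25.06, 11.5 and 3999 FPKM), and the thymocyte markers are below the controls in every irradiated library.

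Other ciliary genes that the name rule does not take in were counted by 8 lists. Of 12 further subunits of the dynein arms 9 were tested, of which 4 rose and 3 fell (median log2 fold change 0.70). Wdr78, an intermediate chain of an inner arm, measured 39.1 ± 3.48 FPKM in the controls and 1.99 ± 0.0819 FPKM in the irradiated libraries (SD, n = 3 each; -4.23, adjusted p = 4.47e-05). The dynein light chain homolog Tctex1d1 fell by 6.29 (adjusted p = 5.75e-05), and the light chain genes Dnal4 and Dynll2 rose by 0.70 and 1.2. Like Dnah8, Wdr78 and Tctex1d1 were well above 1 FPKM in every control. Of the docking and assembly factors outside the rule 10 of 15 were tested, 1 rose and 3 fell (median -0.07). Mns1, a doublet lumen protein, fell by 3.45 (adjusted p = 5.75e-05), the chaperone Hsp90aa1 by 1.32 and Ruvbl1 by 0.42, while the docking protein Ttc25 rose by 2.29. In the nexin-dynein regulatory complex, which joins neighbouring doublets, 7 of 11 were tested, Ccdc39 and Gas8 rose (1.77 and 0.77), Iqcd fell (-1.33) and the median was 0.77. Irradiated replicate 2 was the highest irradiated library in all 11. With no filter 1 of the 11 rose and 1 fell, and without irradiated replicate 2 as well 0 rose and 1 fell. Of the 11 central pair genes 9 were tested and 3 rose, among them Stk36 by 3.04 and Kif9 by 2.24, with a median of 1.95. Of these 9 genes 8 passed the filter only through their irradiated values, so that count cannot be read as a share. After quantile normalization 3 rose and 1 fell, with a median of 0.38. With no filter 5 of the 11 rose and 0 fell, where 35.7% and 15.1% of all genes did. Hydin, a large central pair protein, had a log2 fold change of 2.27 and an adjusted p of 0.0504.

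Lists of proteins that primary cilia also use came next. Of the 20 further transport proteins and motors 19 were tested, of which 14 rose and 2 fell (median 0.99). Tulp3, an adaptor that brings receptors into the cilium, went from 6.68 ± 0.859 FPKM to 33.9 ± 3.47 FPKM (SD, n = 3 each; 2.33, adjusted p = 6.45e-05). The retrograde motor chain Dync2li1 rose by 2.16 and the complex A subunits Wdr35 and Wdr19 by 1.52 and 1.56, while the complex B subunits Cluap1 and Hspb11 fell by 0.81 and 0.84. After quantile normalization 4 of the 19 rose and 3 fell, with a median of 0.07. Of the 13 genes of the BBSome and its partners, which move membrane proteins in and out of cilia, 6 rose and 2 fell (median 0.23), and 1 rose and 6 fell after quantile normalization. Ttc8 and Bbs2 rose by 1.84 and 1.80, and Bbip1 and Lztfl1, each above 20 FPKM in the control mean, fell by 1.39 and 1.46. Of 18 transition zone genes, which form the gate at the base of the cilium, 8 rose and 3 fell (median 0.37), and 2 rose and 9 fell after quantile normalization. Cc2d2a rose by 3.05, Tmem231 by 2.11 and B9d1 by 1.33. Of 12 tested genes of Hedgehog signalling, the pathway that runs through the primary cilium, 8 rose and 1 fell (median 2.25), and 5 rose and 3 fell after quantile normalization. The co-receptor Boc rose by 2.93, Evc and Evc2 by 3.57 and 3.46 and Gli3 by 2.64, and the receptor Smo fell by 0.45. The medians of the BBSome and transition zone lists were thus below the 0.40 of all genes, and those of the transport and Hedgehog lists above it. In the Hedgehog list irradiated replicate 2 was the highest irradiated library in 5 of 13 genes, against 56 of 66 axonemal genes. Lists this short were described by counts beside the background of 42.4% and 20.9%, and no list was tested.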

How the data were processed

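The ciliary genes, the role groups and the lists were chosen with earlier results of these data known. RNA was taken with TRIzol and made into libraries with a NEBNext kit, per the labels' protocols. The authors deposited 1 FPKM value per library and transcript line; the lines of a gene repeat the same value, so 1 line per gene was used. Of the tools, the submitters' processing notes name DESeq2 1.10.1, and the deposited tables hold the authors' log2 fold changes, p-values and adjusted p-values. How reads were aligned, counted by strand and annotated is not given in the sources used here. Coordinates are read as GRCm38: 99.79% of the 58693 transcripts found in GENCODE M21 have the same start and end there.

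Groups follow the labels. The fit was limma 3.58.1 (R 4.3.3) on log2(FPKM + 0.1), genes averaging at least 0.5 FPKM, group only, an abundance trend and Benjamini-Hochberg adjustment over all tested genes; it was tested on simulated data. Depth, estimated from the FPKM worth 1 fragment, ran from 21900000 to 25600000 fragments a library, the irradiated ones being the deeper, and limits the precision of genes under about 0.1 FPKM. Values in full are given, per role, for the up to 6 tested genes with the smallest adjusted p and up to 3 abundant ones not past the threshold, and, for lists, for the 4 tested genes with the smallest adjusted p, some of which are not reported here; other genes are named to account for a count of 5 or fewer or for their values. Of the lncRNA table's 53063 lines, 62 held only text and were dropped. Alternatives were other scalings, pseudocounts and filters, no trend, a replicate block and leaving out each library; no filter with a library left out was added after seeing the data, as were the half-site and the facing pair. The 2 longer X-box motifs planned instead were found in 0 and 3 of the 73 promoters (4.11% for the second, against 0.563% of all).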

Additional observations from a re-analysis of the deposited data

How the results depend on the processing

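The count of ciliary genes that rose, 28 of 50, became 5 after quantile normalization, 18 with a pseudocount of 1 and 15 of 30 tested when at least 1 FPKM in 3 libraries was asked for. Leaving out 1 library gave 12 to 29, the lowest without irradiated replicate 2 and the next, 17, without control replicate 2. The count that fell, 8, ranged from 6 to 10 over the same fits, and over all genes they gave 4916 to 6730 higher and 2150 to 3466 lower. All genes numbered 3501 higher and 4403 lower after quantile normalization and 4655 higher and 4558 lower with median-ratio scaling. With no filter, leaving out irradiated replicate 1, 2 or 3 gave 38, 33 and 42 ciliary genes that rose and 10, 8 and 6 that fell.

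With the replicate number as a block, 26 ciliary genes rose and 7 fell (all genes 5693 and 2662). Deviations of same-numbered libraries correlated at 0.06, -0.04 and 0.05, so the numbers do not pair the samples.

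Of 623 alternative values of the 36 genes named by the rule, 525 kept direction and side of the threshold, 60 lost the call, 21 gained one and 17 changed sign. After quantile normalization Dnaaf4 came to -0.565, Rsph10b to -0.528, Cfap300 to -0.170, Cfap298 to -0.619 (adjusted p = 0.0314), Ift140 to -0.317 and Ift88 to -0.338. Median-ratio scaling gave Cfap298 -0.355 and Ift140 -0.193, and equal summed FPKM gave Cfap298 -0.073. Cfap298 was at -0.072 without control replicate 3, 0.093 without control replicate 1 and -0.027 without irradiated replicate 1, with or without the filter. Cfap20 was at 0.101 without control replicate 2, at -0.205 without irradiated replicate 1, and at 0.127 and 0.072 without irradiated replicates 2 and 3, with or without the filter. The cause was not tested. Values under 0.0391 FPKM are below what 1 fragment gives in 1 kb, so the lowest genes rest on few fragments.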
